A study of Mus musculus with 2 samples.

Results

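Insulin, amylin and the enzymes that turn their precursors into hormone were followed in MIN6, an insulin-secreting cell line derived from a mouse insulinoma and widely used to stand in for beta cells. The genes were 9 of the 27179 gene rows of the count table, chosen by symbol: Ins1, Ins2, Iapp, Pcsk1, Pcsk2, Cpe, Pam, Pcsk1n and Ero1lb. All 9 were above the minimum of 1 mean CPM (counts scaled to library size) that 12759 genes reached. No measured value entered this choice, although it was made with earlier results of these data known.

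The study asked what the diabetes candidate gene C2cd4a does in beta cells. It compared MIN6 cells infected with adenovirus carrying C2cd4a fused to green fluorescent protein (C2cd4a-GFP) with MIN6 cells expressing the control construct (control-GFP). For both, the labels give a multiplicity of infection of 100, medium with polybrene at 8 μg/ml and RNA taken 72 to 96 h after infection. They name neither the promoter of the constructs nor the share of infected cells, and their infection text is the same for both samples and mentions the C2cd4a-GFP virus alone, so the titles and characteristics were used to assign the groups. Each condition had 1 poly-A library read as 42 bp pairs, with 30164106 counts for C2cd4a-GFP and 31039999 for control-GFP. With no replicate, no difference below has a replicate check. C2cd4a itself, the check of the labels, had 49238 counts in C2cd4a-GFP cells and 133 in control-GFP cells, and these counts do not separate the introduced from the cells' own transcript.

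Insulin is made as preproinsulin, which loses its signal peptide on entering the endoplasmic reticulum, is folded and joined by disulfide bonds there, and is packed as proinsulin into secretory granules. In the granules the prohormone convertases PC1/3 and PC2 cut at pairs of basic residues, carboxypeptidase E removes those residues, and insulin and C-peptide are released together on stimulation. Amylin is cut from its own precursor by the same enzymes and is in addition amidated at its end. Mice carry a pair of insulin genes, of which Ins1 is the rodent-specific copy and Ins2 the counterpart of human INS.

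Ins1 fell in the C2cd4a-GFP cells, while Ins2 and Iapp, the most abundant transcripts of either library, differed little. Of the enzymes and helpers, Pcsk2 and Ero1lb also fell and Pam rose. Fell and rose are used for genes whose adjusted p, as given by the authors' deposited table, was below 0.05, and by this mark 3 of the 9 genes fell, 1 rose and 5 did not pass. Of the 14619 genes for which the authors' deposited table lists an adjusted p, 6.58% fell and 7.0% rose. By the ratio of the 2 libraries alone, 7 genes lay below equality and 2 above, and the 95% counting interval excluded equality for all 9. For Pcsk1 it held equality when libraries were scaled by total counts, with or without the 9 genes, or when the trend with exon length was removed, which leaves 8. At this depth that is a weak mark, since the interval also excluded equality for 33.0% of all genes tested on the lower side and 30.6% on the higher side. A call by size needed in addition a ratio of at least 1.5. By that rule 1 gene, Ins1, was lower and 0 were higher, against 4.23% of all genes tested in each direction (540 lower and 540 higher, or 453 lower and 682 higher when scaled by total counts). The median log2 ratio was -0.20 over the 9 genes and -0.01 over all genes tested.

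**Figure D1:**
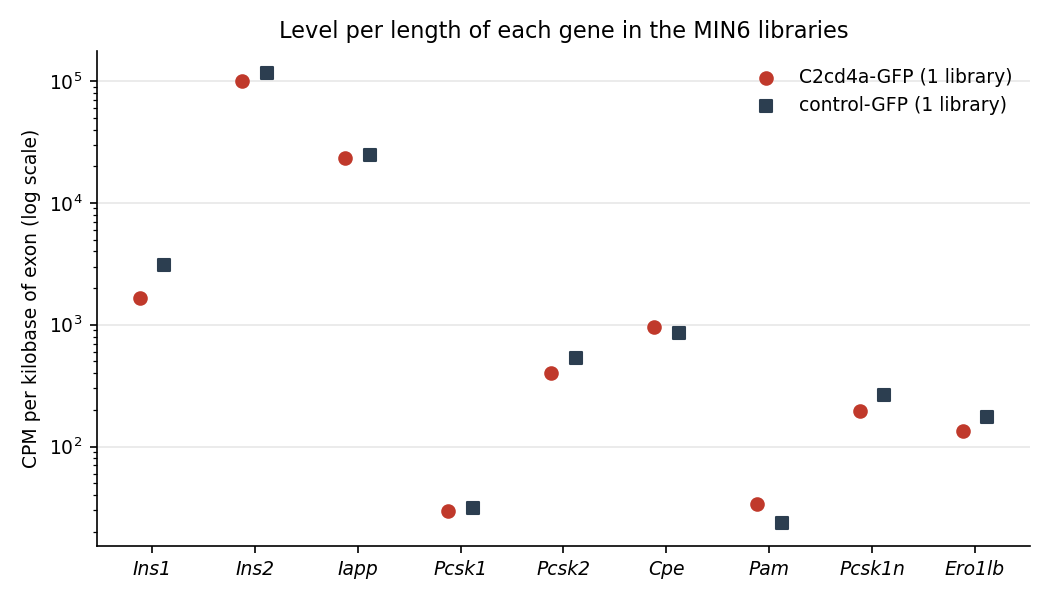
CPM per kilobase of exon (log axis) of the 9 genes, with the C2cd4a-GFP library left of the control-GFP library for each gene and 1 point per library. Ins2 and Iapp stand far above the rest in both libraries, and Pam and Pcsk1 are lowest, changing places between them.

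Ins2 and Iapp ranked 1 and 2 by count in both libraries. Together the 9 genes held 8.15% of all counts in C2cd4a-GFP cells (95% Clopper-Pearson interval 8.14 to 8.16%) and 9.04% in control-GFP cells (9.03 to 9.05%). Ins1, Ins2 and Iapp made up nearly all of this, at 7.63% and 8.47% of counts in the C2cd4a-GFP and control-GFP libraries, and the 6 processing genes held 0.521% and 0.574%. Reads were not tagged with molecular identifiers in the labels, so these intervals and those below cover counting error only.

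Ins1 lies on mm10 chromosome 19 at 52264323 to 52265476 on the plus strand, with 2 exons (gene ID 16333). It had 52505 counts in C2cd4a-GFP cells and 98394 in control-GFP cells, or 1715 and 3218 CPM. That is a 1.88-fold lower level, with a log2 ratio of -0.91 (interval -0.92 to -0.89). Only 125 of the 12759 genes tested had a lower ratio. In the authors' deposited table Ins1 fell by 0.67 on the log2 scale (DESeq2 adjusted p = 0.0037), with normalized values of 66316 for C2cd4a-GFP and 105850 for control-GFP. Among transcripts Ins1 held rank 19 by count in C2cd4a-GFP cells and rank 8 in control-GFP cells.

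Ins2 lies on chromosome 7 at 142678656 to 142679708 on the minus strand, with 2 exons (gene ID 16334), and was the most counted transcript of both libraries. It had 1747389 counts in C2cd4a-GFP cells, 5.79% of all counts, and 2002730 in control-GFP cells, 6.45%. Its scaled level was 57072 CPM in C2cd4a-GFP and 65490 CPM in control-GFP, a log2 ratio of -0.20 (-0.20 to -0.20), and 3367 of the genes tested had a lower one. For Ins2 the authors' deposited table gives -0.07 (adjusted p = 0.824). Its transcript is short and rich in G and C, and once trends with length and GC content were removed its ratio turned to 0.15.

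The share of Ins1 among insulin transcripts is free of library scaling, because both genes are read in the same library. Ins1 made up 2.92% of the insulin counts in C2cd4a-GFP cells (2.89 to 2.94%) and 4.68% in control-GFP cells (4.65 to 4.71%). The log2 change of the Ins1 to Ins2 count ratio was -0.71 (-0.72 to -0.69, from Poisson variances). The authors' normalized values give 3.15% for C2cd4a-GFP and 4.72% for control-GFP, a log2 change of -0.61, and with the length and GC trends removed the raw change was -0.98. Ins1 and Ins2 counted together were at a log2 ratio of -0.22 (-0.23 to -0.22). The sum therefore followed Ins2, with 5.97% of all counts in C2cd4a-GFP cells and 6.77% in control-GFP cells. The coding parts of both genes are alike, so that reads can be ambiguous. Of the 42-base words in annotated Ins1 transcripts, 2.25% also occur in Ins2 transcripts, and 1.55% of those in Ins2 transcripts occur in Ins1. The sources used here do not say how such reads were counted. Ins2 had 33.3 times the counts of Ins1 in C2cd4a-GFP cells and 20.4 times in control-GFP cells. A small part of Ins2 reads could thus weigh on the Ins1 count, its ratio and its share, and how far it did was not tested.

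**Figure D2:**
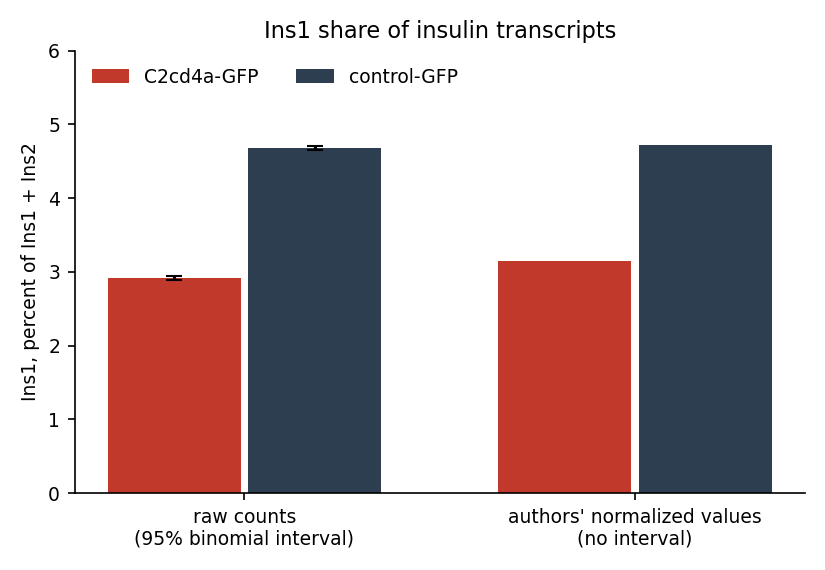
Ins1 as a percentage of Ins1 plus Ins2 in C2cd4a-GFP (left bar of each pair) and control-GFP, from the raw counts with 95% binomial intervals and from the authors' normalized values without intervals. The share is lower in C2cd4a-GFP in both, at 2.92% against 4.68% and 3.15% against 4.72%.

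Iapp encodes the precursor of amylin, which beta cells store and release with insulin. It lies on chromosome 6 at 142298425 to 142303820 on the plus strand (gene ID 15874). It had 500244 counts in C2cd4a-GFP cells and 528003 in control-GFP cells, or 16339 and 17266 CPM. The log2 ratio of -0.08 (-0.09 to -0.07) was the smallest difference of the 9, and the authors' deposited table gives -0.03 (adjusted p = 0.918). It turned to 0.09 once the trend with exon length was removed and stood at -0.10 once the GC trend was removed as well. Relative to Ins2, Iapp counts were 0.286 in C2cd4a-GFP cells and 0.264 in control-GFP cells, a log2 change of 0.12 (0.11 to 0.13), which the authors' normalized values put at 0.04. With the length and GC trends removed it turned to -0.25. An unnamed gene model on the opposite strand (gene ID 100862370) shares 515 exon bases with Iapp, but had 43 counts in C2cd4a-GFP cells and 39 in control-GFP cells.

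The 300-base windows at the RefSeq starts of Ins1 and Iapp are shown because Ins1 fell and Iapp, another hormone gene of the same cell, differed little. They come from RefSeq, build GRCm38.p6, and run from 250 bases before the RefSeq start to 50 after it, written 5′ to 3′ on the gene's strand. Such a window was found for 7 of the 9 genes. Capitals mark matches, on either strand, to 4 short words searched for: CATCTG (an E-box, the kind of site that NEUROD1 dimers bind), TAAT (the core bound by homeodomain factors such as PDX1), CTTCAGC (part of the insulin promoter element bound by MAFA) and TGACG (contained in cyclic AMP response elements).
Ins1 (chr19:52264047-52264346, plus strand): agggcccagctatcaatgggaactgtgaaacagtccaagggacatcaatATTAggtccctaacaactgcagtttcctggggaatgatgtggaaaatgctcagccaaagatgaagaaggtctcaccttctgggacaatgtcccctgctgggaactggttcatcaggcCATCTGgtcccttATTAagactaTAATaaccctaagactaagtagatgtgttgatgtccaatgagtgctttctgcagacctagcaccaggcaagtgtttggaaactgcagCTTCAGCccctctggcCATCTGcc
Iapp (chr6:142298175-142298474, plus strand): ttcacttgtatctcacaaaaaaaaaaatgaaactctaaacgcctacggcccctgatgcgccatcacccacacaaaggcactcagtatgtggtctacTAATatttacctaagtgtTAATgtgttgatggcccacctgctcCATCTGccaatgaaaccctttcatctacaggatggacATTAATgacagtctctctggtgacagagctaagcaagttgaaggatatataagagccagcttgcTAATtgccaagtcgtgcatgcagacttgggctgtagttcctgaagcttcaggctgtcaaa

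The Ins1 window holds the E-box word at 2 places, 84 bases before and 43 bases after the RefSeq start. That start (52264297) is 26 bases upstream of the start in the count table. In the same window the homeodomain word occurs at 3 places, all before the RefSeq start, and the MAFA word at 1, 27 bases after it. Whether transcription begins at the RefSeq start in these cells was not tested. The positions are therefore distances from that annotated start only, and the Ins1 and Iapp windows may not cover matching parts of their promoters. The Iapp window holds the E-box word at 1 place and the homeodomain word at 5, of which 2 overlap on opposite strands. Among 32851 promoter windows of the same length, 17.2% hold the E-box word, 58.0% the homeodomain word, 6.45% the MAFA word and 20.8% the cyclic AMP word. The cyclic AMP word was found in the windows of Pcsk1, with 3 matches of which 2 overlap on opposite strands, and Pcsk2, with 1. Neither the E-box word nor the MAFA word was found in the windows of Pcsk1, Pcsk2, Pcsk1n, Pam or Ero1lb. A match describes letters in the window and does not show that a factor binds there.

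Of the prohormone convertases, Pcsk2 fell and Pcsk1 differed less. Pcsk1 encodes PC1/3, which cuts mainly at the junction of the insulin B chain and C-peptide (chromosome 13, 75089987 to 75132498, gene ID 18548). It had 2265 counts in C2cd4a-GFP cells and 2431 in control-GFP cells, or 74.0 and 79.5 CPM, a log2 ratio of -0.10 (-0.19 to -0.02). For Pcsk1 the authors' deposited table gives -0.16 (adjusted p = 0.521).

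Pcsk2 encodes PC2, which cuts mainly at the junction of C-peptide and A chain and also acts in amylin maturation (chromosome 2, 143546133 to 143816284, gene ID 18549). It had 58711 counts in C2cd4a-GFP cells and 77168 in control-GFP cells, or 1918 and 2523 CPM. Its log2 ratio was -0.40 (-0.41 to -0.38), and 1333 of the genes tested had a lower one. In the authors' deposited table Pcsk2 fell by 0.31 (adjusted p = 0.0182). The gap between both convertases was wide in these cells. Per kilobase, the level of Pcsk2 was 13.7 times that of Pcsk1 in C2cd4a-GFP cells and 16.8 times in control-GFP cells. The log2 change of the Pcsk1 to Pcsk2 count ratio was 0.29 (0.21 to 0.38), and 0.15 by the authors' normalized values. The antisense gene Pcsk2os1 shares 260 exon bases with Pcsk2 and had 355 counts in C2cd4a-GFP cells and 430 in control-GFP cells. The sources used here do not say whether reads were counted by strand.

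Transcripts for the partner proteins of both convertases were lower in the pair of libraries, without passing in the authors' deposited table. Pcsk1n encodes proSAAS, whose peptide inhibits PC1/3 (chromosome X, 7919822 to 7924410, gene ID 30052). It had 13206 counts in C2cd4a-GFP cells and 17672 in control-GFP cells, or 431 and 578 CPM, a log2 ratio of -0.42 (-0.45 to -0.39). For Pcsk1n the authors' deposited table gives only -0.10 (adjusted p = 0.833), the widest gap between the 2 sources among the 9 genes. The authors' normalized values for Pcsk1n were 1.34 times the raw count for C2cd4a-GFP and 1.07 times for control-GFP. Its transcript had the highest GC content of the 9, 57.3%, and its ratio was -0.20 with the length and GC trends removed. Scg5, which encodes the PC2 chaperone 7B2, had 8680 counts in C2cd4a-GFP cells and 9788 in control-GFP cells, a log2 ratio of -0.18 (-0.22 to -0.13). For Scg5 the authors' deposited table gives -0.12 (adjusted p = 0.586).

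The enzymes that finish the peptides lay above equality. Cpe encodes carboxypeptidase E, which trims the basic residues left by the convertases (chromosome 8, 64592542 to 64693040, gene ID 12876). It had 61563 counts in C2cd4a-GFP cells and 55047 in control-GFP cells, or 2011 and 1800 CPM, a log2 ratio of 0.16 (0.14 to 0.18). For Cpe the authors' deposited table gives 0.17, with an unadjusted p of 0.0414 and an adjusted p of 0.172.

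Pam encodes the monooxygenase that amidates amylin and other peptides (chromosome 1, 97821094 to 98095632, gene ID 18484). It had 4218 counts in C2cd4a-GFP cells and 2951 in control-GFP cells, or 138 and 96.5 CPM. The log2 ratio was 0.51 (0.45 to 0.58), a 1.43-fold higher level just short of the size rule, and 777 of the genes tested had a higher one. In the authors' deposited table Pam rose by 0.48 (adjusted p = 0.00111). Per kilobase, Cpe stood 28.5 times above Pam in C2cd4a-GFP cells and 36.4 times in control-GFP cells.

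Ero1lb, the folding oxidase of the group, fell. It encodes the ERO1 beta oxidase of the endoplasmic reticulum, abundant in beta cells, which reoxidises the protein disulfide isomerases that form the bonds of proinsulin (chromosome 13, 12565883 to 12609528, gene ID 67475). It had 17296 counts in C2cd4a-GFP cells and 22885 in control-GFP cells, or 565 and 748 CPM, a log2 ratio of -0.41 (-0.43 to -0.38). In the authors' deposited table Ero1lb fell by 0.43 (adjusted p = 3.59e-05), the smallest p of the 9. Its ubiquitous paralog Ero1l had 2311 counts in C2cd4a-GFP cells and 2199 in control-GFP cells, a log2 ratio of 0.07 (-0.01 to 0.15). The log2 change of the Ero1lb to Ero1l count ratio was -0.48 (-0.56 to -0.39), and -0.50 by the authors' normalized values.

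**Figure D3:**
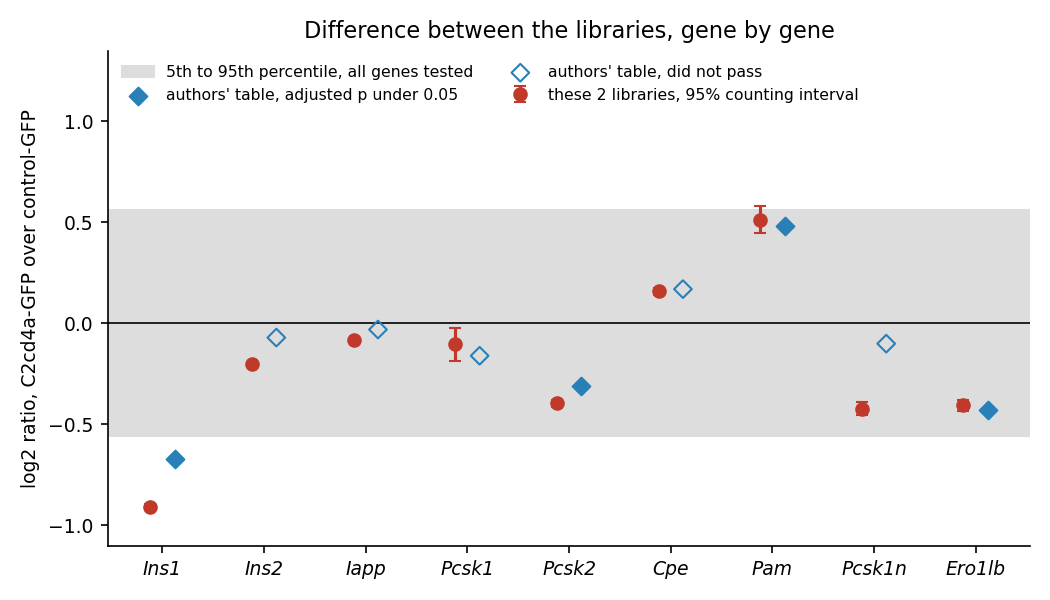
Log2 ratio of C2cd4a-GFP over control-GFP for each gene, from the 2 libraries with 95% counting intervals (circles) and from the authors' deposited table (diamonds, filled where the adjusted p was under 0.05), over the band from the 5th to the 95th percentile of all genes tested. Ins1, at -0.91 and -0.67, is the only gene below the band, and Pam, at 0.51 and 0.48, lies near its upper edge.

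Levels can be ordered between genes only per length of exon, and the order was the same in both libraries for 7 of the 9 genes. In the C2cd4a-GFP library it ran from Ins2 (101013 CPM per kilobase) and Iapp (23475) through Ins1 (1655), Cpe (956), Pcsk2 (404), Pcsk1n (197) and Ero1lb (133) to Pam (33.6) and Pcsk1 (29.4). In the control-GFP library the first 7 had the same order, from 115911 for Ins2 to 177 for Ero1lb, followed by Pcsk1 (31.6) and Pam (23.5). Counting intervals of neighbours did not overlap in either library, but without replicates it cannot be said whether Pam and Pcsk1 differ beyond the spread between cultures. The level of Ins1 depends on its annotation. The exon length in the deposited table is 1036 bases, and 575 bases remain if the gene ends where RefSeq ends it, at 52265015. With the shorter length Ins1 stood at 2982 CPM per kilobase in C2cd4a-GFP cells and 5596 in control-GFP cells. Ins2 was then 33.9 and 20.7 times as abundant per length in the C2cd4a-GFP and control-GFP libraries, instead of 61.0 and 37.3 times.

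Genes that make, fold and process proinsulin around these 9 were read from 6 lists, to be set against the 4.23% of all genes tested that met the size rule in each direction and the 7.0% rising and 6.58% falling by the authors' deposited table. In lists this short a count of 0 or 1 lies near those shares. By the size rule, 0 of 24 genes of entry into the endoplasmic reticulum and signal peptide cleavage were higher or lower, and their median log2 ratio was -0.02. Sec61a1, the pore of the translocon, was at -0.16 (-0.20 to -0.13) and Ssr2, a translocon-associated protein, at -0.17 (-0.21 to -0.13). None of the 24 passed in the authors' deposited table, where Sec61a1 stood at -0.07 (adjusted p = 0.688) and Ssr2 at -0.02 (adjusted p = 0.958).

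Of 26 measured disulfide and folding genes, 0 met the size rule in either direction, with a median of -0.05. The chaperone gene Hsp90b1 fell by 0.31 (adjusted p = 0.0385) and the isomerase gene Pdia4 by 0.27 (adjusted p = 0.0185) by the authors' deposited table, and these 2 were the only ones of the 26 to pass there. Hspa5, the chaperone BiP, was at 0.06 (0.03 to 0.08), and the authors' deposited table gives 0.00 (adjusted p = 0.995).

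None of the other convertase genes met the size rule or passed in the authors' deposited table, where all 7 had an adjusted p. The 6 with at least 1 mean CPM had a median of -0.19. Furin, which cuts in the trans-Golgi of most cells, had 2534 counts in C2cd4a-GFP cells and 2981 in control-GFP cells, a log2 ratio of -0.24 (-0.31 to -0.16). For Furin the authors' deposited table gives -0.16 (adjusted p = 0.438). Mbtps1, the site-1 protease, was at 0.01 (-0.04 to 0.07), and the authors' deposited table gives -0.05 (adjusted p = 0.833). Of 10 measured genes of other carboxypeptidases, peptidases and helpers, 0 met the size rule (median -0.06), and 0 of the 12 with an adjusted p passed by the authors' deposited table. The lysosomal cathepsins Ctsb and Ctsl, the most abundant of that list, were at 0.08 (0.05 to 0.11) and -0.01 (-0.04 to 0.03).

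Granule cargo, acidification and zinc genes had a median of 0.05 over 21 genes, and 0 met the size rule, or 2 when scaled by total counts (Ccdc186 at 0.62 and Vgf at 0.59). Scg2, which encodes secretogranin II, was at 0.20 (0.19 to 0.21), and Chga, which encodes chromogranin A, at -0.12 (-0.13 to -0.10). Vgf, another granule peptide precursor, rose by 0.80 (adjusted p = 0.000141) by the authors' deposited table, the single one of the 21 to pass there.

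Regulators of the insulin genes had a median of 0.00 over 23 genes with at least 1 mean CPM. Crem, a cyclic AMP responsive factor, was the single gene that met the size rule, at its edge. It had 415 counts in C2cd4a-GFP cells and 276 in control-GFP cells, a log2 ratio of 0.59 (0.36 to 0.81). Crem no longer met the rule under upper-quartile scaling (0.57), thinned to equal totals (0.58) or with a prior count of 2 (0.58). The same held with the length trend removed (0.53) or the length and GC trends removed (0.41). With both trends removed, Cebpb was the single regulator that met the rule, as higher. For 24 of the regulators the authors' deposited table lists an adjusted p, and of these 4 rose (Crem by 0.46, Rfx3 by 0.46, Cebpb by 0.78 and Neurod1 by 0.42) and 1 fell (Crtc2, by 0.30). The list genes named for the authors' calls, for a scaling that changed a call, as partners of a member (Scg5, Ero1l) or as markers (Pdx1, Mafa, Hhex, Krt7) were chosen after their values were seen. Among 197 genes of at least 500 CPM, the 4 whose log2 ratio over these 2 libraries lay nearest to that of Ins1 were Aldoa (-0.95), Tpi1 (-0.86), Npy (-0.73) and Nnat (-0.68). By the authors' deposited table Aldoa (-0.89), Tpi1 (-0.65) and Npy (-0.58) fell, and Nnat did not pass (-0.44, adjusted p = 0.0736). These 4 were picked for a low ratio in the same comparison, so the calls are not separate support. Aldoa and Tpi1 encode enzymes of glycolysis, and Npy the precursor of neuropeptide Y.

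**Figure D4:**
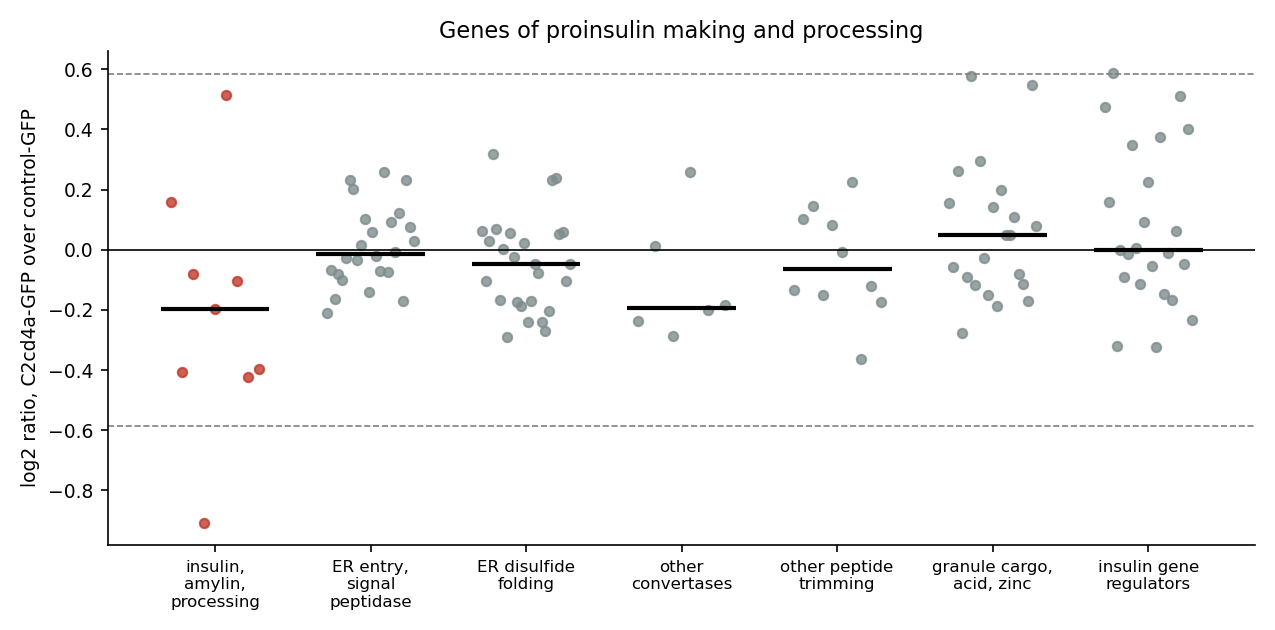
Log2 ratio of C2cd4a-GFP over control-GFP for each gene of at least 1 mean CPM among the 9 genes and 6 lists of proinsulin making, folding, processing and regulation, with 1 point per gene, black bars at the medians and dashed lines at a ratio of 1.5 either way. The lists of cell type markers are not drawn. Of the genes drawn, Ins1, at -0.91, is the only one below the lower dashed line, and Crem, at 0.59, lies at the upper one.

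The cells carried their beta-cell markers. All 14 listed markers had at least 1 mean CPM, and they summed to 79431 CPM in C2cd4a-GFP cells and 90829 in control-GFP cells. Besides Ins1, the glucose transporter gene Slc2a2 met the size rule, with 5574 counts in C2cd4a-GFP cells and 9498 in control-GFP cells and a log2 ratio of -0.77 (-0.82 to -0.72). Of the 14, 6 fell and 0 rose by the authors' deposited table, where 6.58% of all genes fell. Ins1, Ins2, Iapp and Ero1lb are among the 14 and supply 2 of the 6 and most of the sum. The other 10 markers summed to 3740 CPM in C2cd4a-GFP cells and 4107 in control-GFP cells, and 4 of them fell. Pdx1 and Mafa, activators of the insulin genes, were at 0.06 (0.02 to 0.10) and -0.05 (-0.14 to 0.03). Of 7 markers of other islet cells, the glucagon gene Gcg alone reached 1 mean CPM. It had 2292 counts in C2cd4a-GFP cells and 1511 in control-GFP cells, a log2 ratio of 0.60 (0.51 to 0.69), and it rose by 0.49 in the authors' deposited table (adjusted p = 1.51e-05). The delta-cell factor Hhex had 0 counts in C2cd4a-GFP and in control-GFP cells, a level of at most 0.098 CPM. The 7 markers summed to 76.5 CPM in C2cd4a-GFP cells and 50.3 in control-GFP cells, 16 exocrine and duct markers to 39.3 and 50.2 with 11 of them at 0 in both and Krt7, a duct keratin, supplying 37.0 and 48.3, and 11 non-epithelial markers to 5.91 and 5.49 with 3 at 0 in both. Their part in the differences was not tested. In bulk RNA, fewer cells that express a gene and less of its RNA per cell cannot be told apart.

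The ratio of these libraries varied with transcript features, and the 9 genes differ widely in them. Exon length ran from 565 bases for Ins2 to 4745 for Pcsk2, and transcript GC content from 40.8% for Pcsk1 to 57.3% for Pcsk1n. Over the genes tested, which are not independent replicates and share both libraries, Spearman's rho of the log2 ratio was 0.332 for exon length and -0.484 for GC content. With both trends removed, Ins1 stood at -0.83, Pcsk2 at -0.64, Ero1lb at -0.62 and Pam at 0.36. By the size rule 3 of the 9 (Ins1, Pcsk2 and Ero1lb) were then lower and 0 higher. Over all genes tested, 331 were then lower and 382 higher, against 540 in each direction before. The call of Ins1 as lower was kept under every scaling and trend tried, over a range of -0.93 to -0.77, and was lost when a ratio of 2 was asked for, which 0.909% of all genes tested reached upward and 0.69% downward. At a log2 ratio of 0.32 either way, Pam was higher and Ins1, Pcsk2, Pcsk1n and Ero1lb were lower, where 13.9% of all genes tested were higher and 13.5% lower.

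**Figure D5:**
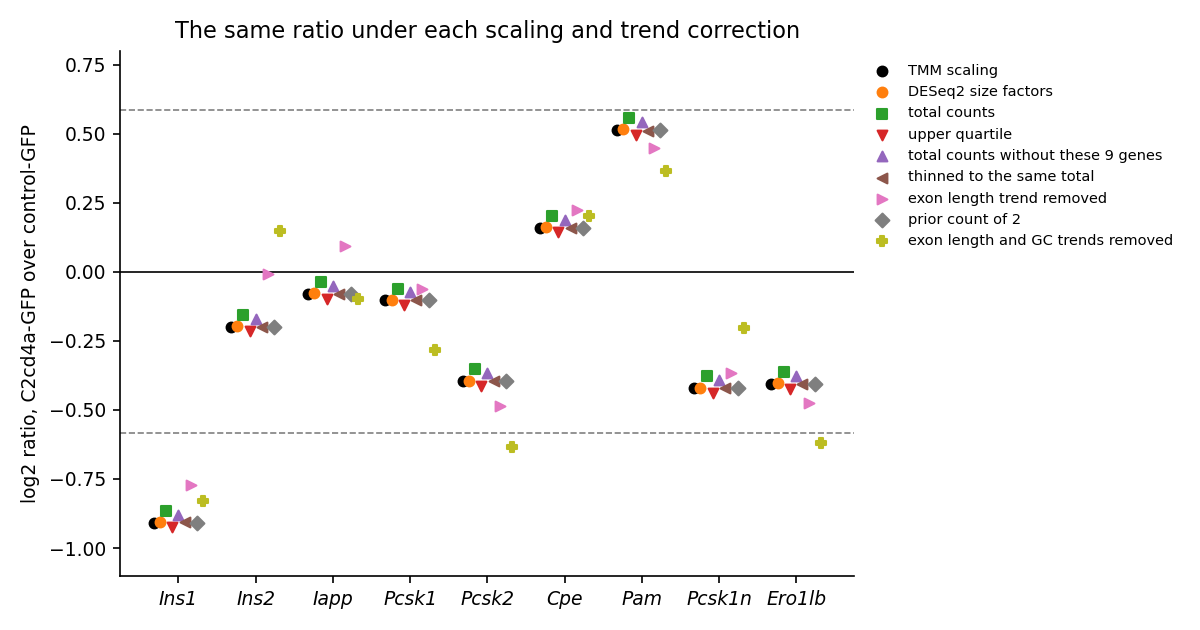
Log2 ratio of C2cd4a-GFP over control-GFP for each gene under TMM scaling and 8 other settings, with dashed lines at a ratio of 1.5 either way. Ins1 stays below the lower line throughout, Ins2 runs from -0.22 to 0.15, and Pcsk2 and Ero1lb pass the lower line with the exon length and GC trends removed.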

How the data were processed

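RNA from MIN6 cells was measured in 2 poly-A, directional libraries, 1 per condition. The submitters' processing notes name STAR 2.5.2b, featureCounts, Subread 1.5.2, DESeq2 1.14.1 and mm10, with no role for any of them. The count per gene was deposited by the authors as a whole number, next to exon coordinates and lengths per the file headers. Their table also holds log2 fold changes (C2cd4a-GFP over control-GFP) and p-values, raw and adjusted, as deposited by the authors. The sheet's title names DESeq2, and the p-values are credited to it. A second deposited table gives a normalized score per gene and condition. The log2 ratio of these scores, with 1 added, equals the authors' fold change within 0.005 for 100% of 26328 genes. The scores do not follow from the raw counts by any single factor per library, and the number of libraries behind them is unknown.

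RefSeq GRCm38.p6 supplied 27 symbols that a spreadsheet had turned into dates, and 847 rows stayed under their gene ID. Library sizes were adjusted by TMM (edgeR 4.0.16, R 4.3.3) with factors of 1.015 for C2cd4a-GFP and 0.985 for control-GFP. Each ratio has an exact Clopper-Pearson 95% interval given the gene's summed count, and 0 counts were taken to allow 3. The size rule asks for a ratio of at least 1.5, an interval that leaves out equality and at least 1 mean CPM. With 1 library per condition, p-values come only from the authors. The calculation was tested on simulated counts. GC content is the median over GENCODE transcripts, found for 95.7% of genes tested, and trends were removed with lowess curves of span 0.3.

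By rule, the genes named are C2cd4a, all 9 members, up to 4 genes per list that met the size rule (otherwise the 2 most abundant) and the 4 abundant genes nearest to Ins1. Others were named after their values were seen. The members and lists were chosen with earlier results of these data known. Other scalings were DESeq2 1.42.0 size factors, upper quartile, total counts and totals without the members. Also varied were the depth (thinned to equal totals), the prior count (2), the filter, the ratio and the length trend. The GC trend was added after seeing the data.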

Additional observations from a re-analysis of the deposited data

How the results depend on the processing

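Each of the 9 genes was recomputed under 8 alternatives, and the sign of the log2 ratio held in all of them for every gene but 2: Ins2 turned to 0.15 with the exon length and GC trends removed, and Iapp to 0.09 with the length trend removed. The median of the 9 genes was -0.0641 without the length trend, against -0.198. Asking only for a log2 ratio of 0.32 gave 1 of the 9 higher and 4 lower, against 13.9% and 13.5% of all genes tested (1769 higher and 1727 lower). Asking for a ratio of 2 gave 0 of the 9 lower, and 116 genes higher and 88 lower over all tested. With the length and GC trends removed, 3 of the 9 and 331 of all genes tested were lower. The other counts of size calls among the 9 did not change, and those over all genes tested stayed within 1.5 times. The interval of Pcsk1 held equality under 3 alternatives, which left 8 of the 9 outside it. No paired analysis was possible because each condition has 1 library, and for the same reason no replicate could be left out. Counting error is small here, so depth limits only low genes such as Hhex, where 0 counts allow up to 0.098 CPM.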
